A study of Mus musculus with 3 samples.

Results

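Regions whose CG methylation fell from a high level in bone marrow macrophages (BMM) to a near-unmethylated level in preosteoclasts (pOC) were described in whole-genome bisulfite data of mouse osteoclast differentiation. Bisulfite treatment changes only cytosines without a methyl group, so that sequencing tells the states apart. The methylation level of a region is the share of its reads, summed over its CG cytosines, that are methylated. The regions were chosen from the authors' table of pOC against BMM by a level of at least 60% in BMM and at most 15% in pOC. This held for 1095 of 251946 listed regions. Of these listed regions, 92.9% were lower in pOC, and the 1095 made up 0.468% of the 234161 lower regions and 0.587% of the 186655 lower regions with at least 60% in BMM. Since these levels chose the regions, the drop from BMM to pOC is given as a description and has no test.

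The study had 3 libraries, 1 for each stage, all from C57BL/6 mice at postnatal week 11 with no genetic change named in the labels. Marrow cells from femurs and tibia were kept in culture for 24 h. Cells still afloat then received M-CSF, a macrophage growth factor, at 50 ng/mL and became BMM after 72 h. With RANKL at 100 ng/mL, the cytokine that drives osteoclast formation, and less M-CSF (30 ng/mL), BMM gave pOC after 24 h and mature osteoclasts (mOC) after 72 h or more. The labels do not say whether marrow of several animals was pooled, and no expression data were used here, so the identity of the cells was not checked against marker genes. With 1 library per stage, no stage difference could be checked against replicates or tested. Ranges in parentheses are exact Clopper-Pearson 95% intervals on reads. They hold counting error alone, and a read that spans several cytosines is counted at each, so they are narrower than they should be. In a mixed culture a partial level can come from cells in different states, and fewer cells of a type and less methylation per cell cannot be told apart.

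Methylation of CG sites is copied to the new strand at replication by the maintenance methyltransferase DNMT1. It is lost passively when copying fails, or actively through oxidation by the TET enzymes and base excision repair. Most CG sites of the mouse genome are methylated outside CG islands, while active promoters and many enhancers are unmethylated, and enhancer methylation is remodelled as myeloid cells differentiate. Osteoclasts arise from macrophage precursors when RANKL activates RANK, and the cells fuse into multinucleated cells that resorb bone.

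Few of these losses lay at gene starts, and the sequences that could be read show how few CG sites such a region can hold. None of the 1052 near-complete losses for which a start site could be looked up contained an annotated start, and 33 (3.14%) lay within 1000 bp of one. The share was 2.30% over all lower regions with at least 60% in BMM. Regions overlapped the RefSeq promoter windows (250 bases before to 50 after a start, GRCm38.p6) of 4 genes, and the bases of the region that lie in the window before the start are printed 5′ to 3′ on the gene's strand, because they hold CG sites whose level dropped next to a start. Capitals mark CG sites.
Gm16108 (lncRNA, chr5:114065201-114065400, plus strand): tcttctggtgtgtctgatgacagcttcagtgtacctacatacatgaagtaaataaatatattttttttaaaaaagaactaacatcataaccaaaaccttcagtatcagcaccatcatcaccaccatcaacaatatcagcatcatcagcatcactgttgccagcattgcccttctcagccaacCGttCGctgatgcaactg
Gm39882 (lncRNA, chr2:93257730-93257801, plus strand): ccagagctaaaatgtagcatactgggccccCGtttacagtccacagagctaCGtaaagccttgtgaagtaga
LOC108168956 (predicted gene, chr4:57144803-57144901, minus strand): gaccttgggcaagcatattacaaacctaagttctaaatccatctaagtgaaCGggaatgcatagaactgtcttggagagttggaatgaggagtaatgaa
Pde4b (chr4:102421305-102421402, plus strand): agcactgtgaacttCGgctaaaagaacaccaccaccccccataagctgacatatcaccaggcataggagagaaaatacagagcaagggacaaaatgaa

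The Gm16108 stretch is a whole 200 bp region, and its 2 CG sites, counted on both strands, are the 4 cytosines of the deposited table. The stretch at Gm39882 also holds both CG sites of its region, while those at LOC108168956 and Pde4b hold 1 site each. The median RefSeq promoter window held 7 CG sites. In the full promoter windows of these 4 genes neither the AP-1 motif TGANTCA nor the E-box CACGTG was found on either strand, and the PU.1 core AGGAAG occurred once, in that of Pde4b. Of all 32851 promoter windows, 7.81%, 7.15% and 35.4% held these motifs, and a missing match says only that these letters are not in the window.

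Values at these starts rested on few reads. The region at Gm16108, inside the span of Svop, which encodes a synaptic vesicle protein, was at 68.8% (41.3 to 89.0, 16 reads) in BMM but 11.1% (1.38 to 34.7, 18 reads) in pOC. The region at Gm39882, inside Tspan18, a tetraspanin gene, was at 62.5% (35.4 to 84.8, 16 reads) and 6.25% (0.158 to 30.2, 16 reads). Neither had an mOC level in the tables. Pde4b, a cAMP phosphodiesterase gene, was at 61.9% (38.4 to 81.9, 21 reads) in BMM, 12.1% (3.40 to 28.2, 33 reads) in pOC, then 22.7% (7.82 to 45.4, 22 reads) in mOC, 153 bp from an annotated start. There the mOC interval overlapped both others. At the predicted gene the levels were 61.1% (35.7 to 82.7, 18 reads), 6.25% (0.158 to 30.2, 16 reads) and 32.3% (16.7 to 51.4, 31 reads). Regions near their own gene's start also lay in Snx30, a sorting nexin gene (448 bp away), Zbtb8b (616 bp), Pop4, which encodes an RNase P subunit (748 bp), the tyrosine phosphatase gene Ptpn21 (805 bp) and Lingo1 (953 bp). Snx30 was at 72.2% (46.5 to 90.3, 18 reads) in BMM, 0% (0 to 18.5, 18 reads) in pOC, then 60.9% (38.5 to 80.3, 23 reads) in mOC. Its BMM and mOC intervals overlapped, and both lay above that of pOC.

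The near-complete losses held few CG sites and few reads, as did other lower regions of similar pOC level. The median was 4 cytosines per region, which is the least that a listed region has, and 797 of 1095 (72.8%) had exactly 4, against 40.8% of all lower regions with at least 60% in BMM. The share was 62.0% in the 5639 lower regions with at least 60% in BMM and over 15% to 25% in pOC (the set closest in level), and 64.0% in those under 60% in BMM and at most 15% in pOC. In 43 (3.93%) there were 10 or more, against 18.4%, 7.02% and 4.33%. In width, 1088 covered 200 bp and 7 covered 400 bp. Median depth, in reads summed over cytosines, was 25 in BMM and 23 in pOC. It was 37 in each library over all lower regions of that BMM level, and 28 and 26 in the set closest in level. Per cytosine the medians were 5.5 reads in BMM and 5 in pOC, a smaller gap. They were 6.25 and 6.17 over all lower regions of that BMM level, and 5.75 and 5.33 in the set closest in level. The part of low depth in bringing regions under the limit of 15% was not tested.

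Most of them stood near the limits rather than at full loss. BMM levels had a median of 66.7% with quartiles of 62.5 and 73.9%, and there were 687 regions under 70%, 234 from 70 to under 80%, 119 from 80 to under 90% and 55 at 90% or more. In pOC the median was 11.8% with quartiles of 9.52 and 13.5%, and there were 760 regions over 10%, 249 over 5 to 10%, 40 above 0 to 5% and 46 at 0. The drop ran from 45 to 100 points with a median of 56.3. The median upper bound in pOC was 30.4%, and 82 regions had an upper bound of at most 20%. The BMM and pOC intervals were apart in 1063 regions and met or overlapped in 32. The same reads chose the regions, so this separation is largely fixed by the rule and is no support for the drop. Just inside the pOC limit, 198 regions had median levels of 66.1% in BMM, 14.7% in pOC and, where listed, 55.6% in mOC, and just outside it 223 regions had 66.7%, 15.8% and 56.2%. Just inside the BMM limit, 214 regions had 61.0%, 11.8% and 50%, and just outside it 207 regions had 58.8%, 11.7% and 47.5%.

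Deep regions are here those with the most reads summed over their cytosines, and many of them hold many CG sites. Their intervals are narrow, but a read that spans several cytosines is counted at each. Where CG sites are many, the intervals are therefore narrower than they should be. Among regions in genes with an established symbol, the deepest lay in Supt6, which encodes a histone chaperone of transcription elongation (chr11:78241402-78241801, 18 cytosines in 400 bp; all coordinates are of GRCm38). It was at 81.8% (73.3 to 88.5, 110 reads) in BMM, 11.9% (7.08 to 18.4, 143 reads) in pOC, then 52.7% (43.0 to 62.3, 110 reads) in mOC. The 3 intervals were apart, with mOC between the other stages. Ak9, an adenylate kinase gene (chr10:41427601-41427800), had the same order with 65.8% (56.6 to 74.2, 120 reads), 8.70% (3.83 to 16.4, 92 reads) and 41.8% (29.8 to 54.5, 67 reads) over 16 cytosines, and again no interval overlapped another.

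**Figure D1:**
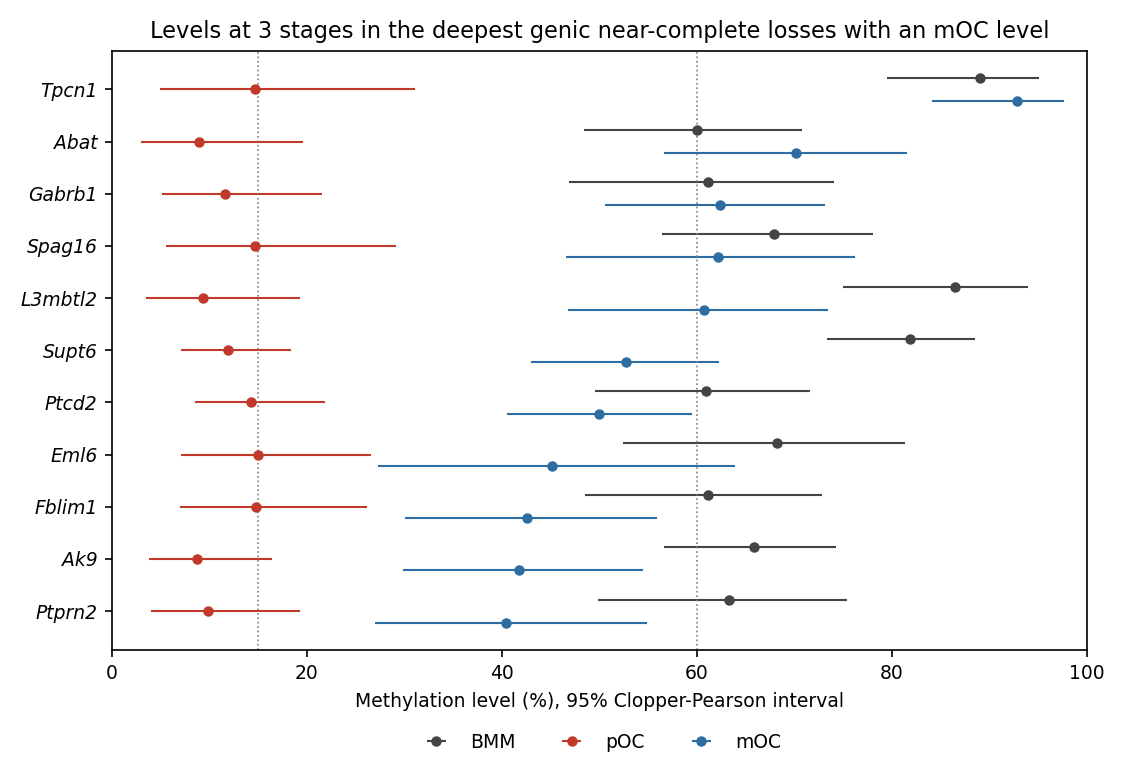
Methylation level (%, x axis) in BMM, pOC and mOC for the 11 regions with an mOC level among the 20 deepest near-complete losses in genes with an established symbol, ordered by that level (predicted and clone-named genes are left out). Points are levels, bars are 95% Clopper-Pearson intervals, and dotted lines mark the limits of 15% and 60%. Among these 11 the mOC level runs from 40.4% in Ptprn2 to 92.9% in Tpcn1.

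Among these 11 regions the mOC interval lay below that of BMM in L3mbtl2, Supt6 and Ak9 and overlapped it in the others. Outside this set it also lay below in deep regions such as that in the clone-named gene 1810006J02Rik, with 77% (67.5 to 84.8, 100 reads) in BMM, 7.06% (2.63 to 14.7, 85 reads) in pOC, then 28.0% (18.7 to 39.1, 82 reads) in mOC. Between genes on chromosome 11 the mOC interval was likewise below that of BMM at chr11:120339402-120339601, chr11:46035602-46035801 and chr11:110390802-110391001, which had 64.2%, 40.3% and 28.6% in mOC. L3mbtl2, which encodes a chromatin-compacting MBT-domain protein (chr15:81681601-81681800), was at 86.4% (75 to 94, 59 reads) in BMM, 9.38% (3.52 to 19.3, 64 reads) in pOC, then 60.7% (46.8 to 73.5, 56 reads) in mOC, so that mOC lay below BMM with no overlap of the intervals. Tpcn1, an endolysosomal cation channel gene (chr5:120585401-120585600), was at 89.0% (79.5 to 95.1, 73 reads), 14.7% (4.95 to 31.1, 34 reads) and 92.9% (84.1 to 97.6, 70 reads), so that BMM and mOC overlapped almost wholly. Abat, which encodes the enzyme that breaks down the transmitter GABA, was at 60% (80 reads), 8.93% (2.96 to 19.6, 56 reads) and 70.2% (56.6 to 81.6, 57 reads), also with overlap of BMM and mOC. Ptcd2, a mitochondrial RNA-processing gene with 20 cytosines in its region, was at 61.0% (82 reads), 14.3% (8.55 to 21.9, 119 reads) and 50.0% (40.5 to 59.5, 114 reads), again with overlap. Fblim1, which encodes a filamin-binding adhesion protein, ended at 42.6% (30.0 to 55.9, 61 reads) in mOC from 61.2% (48.5 to 72.9, 67 reads) in BMM. Ptprn2, a phosphatase-like gene of secretory granules, ended at 40.4% (27 to 54.9, 52 reads) from 63.3% (49.9 to 75.4, 60 reads), and both had overlapping BMM and mOC intervals.

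For other deep regions only BMM and pOC levels were listed. A region of 12 cytosines in Zfp53, a zinc finger gene whose span overlaps 9330136K24Rik there (chr17:21529801-21530000), was at 61.4% (51.2 to 70.9, 101 reads) in BMM but 1.75% (0.0444 to 9.39, 57 reads) in pOC. St3gal3, a sialyltransferase gene, was at 73.8% (60.9 to 84.2, 61 reads) and 12.8% (7.86 to 19.2, 149 reads). Secisbp2, which encodes a selenoprotein synthesis factor, was at 65.7% (53.4 to 76.7, 70 reads) and 13.0% (7.27 to 20.8, 108 reads). These regions combine a deep pOC value with a partial BMM level. Deeper still were 2 regions with no established gene symbol, both on chromosome 7. At chr7:131325601-131325800, 130 bp outside a gene, 28 cytosines were at 73.4% (65.2 to 80.5, 139 reads) and 8.76% (4.61 to 14.8, 137 reads). In the predicted gene Gm4613 (chr7:25828801-25829000) 22 cytosines were at 75.3% (67.5 to 82.1, 146 reads) and 10.7% (5.80 to 17.5, 122 reads).

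The widest separation of the BMM and pOC intervals among regions in named genes lay in Bcap29, which encodes an endoplasmic reticulum membrane protein (chr12:31622401-31622600), with 89.8% (77.8 to 96.6, 49 reads) in BMM but 2.44% (0.0617 to 12.9, 41 reads) in pOC. Npm1, a nucleolar chaperone gene, came next with 100% (86.3 to 100, 25 reads) and 8.70% (1.07 to 28.0, 23 reads), and had 80.8% (60.6 to 93.4, 26 reads) in mOC. Its BMM and mOC intervals overlapped. Zfp267 was at 94.2% (84.1 to 98.8, 52 reads) and 10.3% (2.19 to 27.4, 29 reads), and Arhgef10l, a guanine nucleotide exchange factor gene, at 96.9% (83.8 to 99.9, 32 reads) and 11.8% (3.30 to 27.5, 34 reads). Ncoa3, a coactivator of nuclear receptors, was at 91.4% (76.9 to 98.2, 35 reads) and 6.25% (0.766 to 20.8, 32 reads). These 3 had no mOC level. In Ercc4, a DNA repair nuclease gene, BMM stood at 100% (82.4 to 100, 19 reads), pOC at 9.52% (1.17 to 30.4, 21 reads) and mOC at 60.7% (40.6 to 78.5, 28 reads), with the mOC interval apart from both. Over all 1095 regions, 12 were fully methylated in BMM and 1 of these was at 0 in pOC. The ranking by separation uses the reads that chose the regions, so it is a description and no support for the drop.

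What followed by the mOC stage could be read only in part. The authors' table of mOC against pOC lists a region only if the libraries differ by at least 20 points, and 540 of the 1095 regions (49.3%) had a row of the same coordinates there, against 34.6% of all lower regions with at least 60% in BMM that had a row higher in mOC. All 540 were higher in mOC, which the rule fixes, since a level of at most 15% cannot fall by 20 points. The pOC reads are those that chose the regions, so the share is a description. In the set closest in level 45.8% had a row higher in mOC.

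Across the 540 regions the median level was 66.7% in BMM, 11.8% in pOC and 56.6% in mOC, with quartiles of 46.7 and 70% in mOC. The mOC level was at least that of BMM in 117 regions (21.7%) and below it in 423, against 42.4% at or above BMM over all listed lower regions with at least 60% in BMM and 740 of 2584 in the set closest in level. The mOC interval overlapped that of BMM in 518 regions, lay wholly below it in 21 and wholly above it in 1. It lay wholly above that of pOC in 364, among rows that already differ from pOC by at least 20 points. Intervals at these depths are wide, so an overlap does not show a return to the BMM level. The same interval counts were not made for the other sets, so these counts are descriptions. Over the 2584 listed regions of the set closest in level the median mOC level was 62.0%, and the difference between these medians was not tested.

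**Figure D2:**
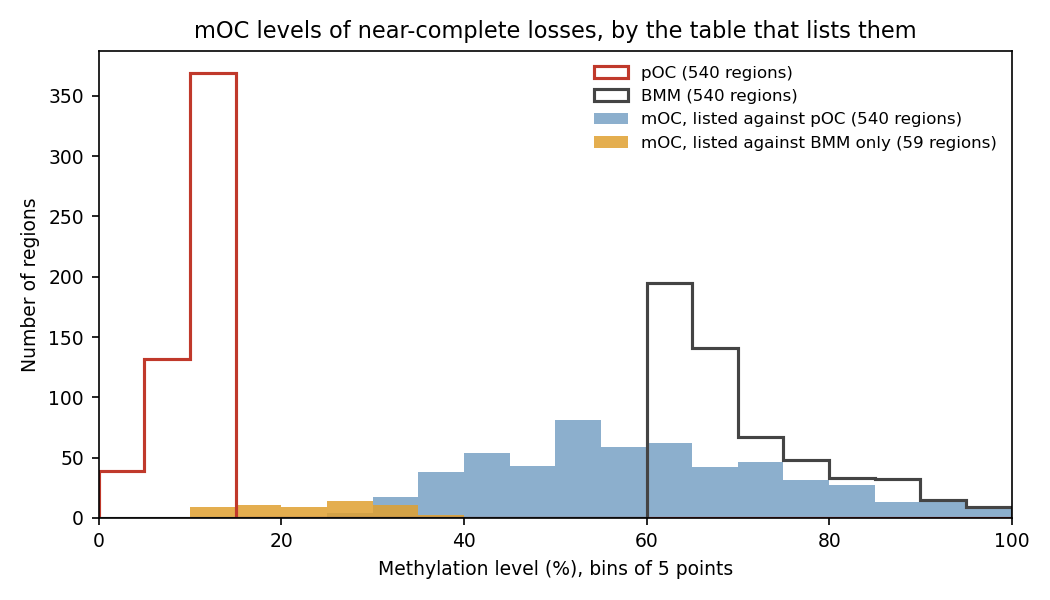
Number of near-complete losses (y axis) by methylation level (%, x axis, bins of 5 points, with pOC bins including their upper edge) in BMM, pOC and mOC for the 540 regions listed in mOC against pOC, and in mOC for the 59 listed only against BMM. The first group spreads from 23.5% to 100% in mOC and the second from 0% to 57.4%.

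The median mOC level differed between classes of BMM level. It was 53.5% in the 336 regions from 60 to under 70% in BMM, 62.5% in the 115 from 70 to under 80%, 73.7% in the 65 from 80 to under 90% and 76.8% in the 24 at 90% or more. Spearman's rank correlation across the 540 regions was 0.38, and 0.43 across 2584 regions of the set closest in level. These points share 3 libraries, and rows with a difference under 20 points from pOC are missing from both. The median difference, mOC minus BMM, was -10.6, -12.0, -11.9 and -18.6 points in these 4 classes, and -6.18, -9.43, -9.05 and -10.3 points in the set closest in level. BMM levels were chosen to be high and mOC levels were not, and the part of that choice in these differences was not tested.

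Among regions in named genes, the highest mOC levels belonged to Spock3 (proteoglycan), Cep95 (centrosomal protein) and Niban1, each at 100%. Spock3 was at 75.8% (57.7 to 88.9, 33 reads) in BMM, 12.0% (2.55 to 31.2, 25 reads) in pOC, then 100% (89.1 to 100, 32 reads) in mOC. It was the 1 region whose mOC interval lay wholly above that of BMM. Cep95 was at 91.2% (76.3 to 98.1, 34 reads), 11.5% (2.45 to 30.2, 26 reads) and 100% (88.1 to 100, 29 reads). Arhgef2, which encodes a microtubule-bound exchange factor, reached 96.4% (81.7 to 99.9, 28 reads), Hgsnat, a lysosomal acetyltransferase gene, 95.8% (78.9 to 99.9, 24 reads), and Bmpr1a, a BMP receptor gene, and Lingo1 94.4% each (72.7 to 99.9, 18 reads). At the lower end of the table, Fam149b was at 82.8% (64.2 to 94.2, 29 reads) in BMM, 0% (0 to 13.7, 25 reads) in pOC, then 32.1% (15.9 to 52.4, 28 reads) in mOC, with all 3 intervals apart. Ddx42, an RNA helicase gene, was at 66.7% (27 reads), 0% (0 to 20.6, 16 reads) and 33.3% (15.6 to 55.3, 24 reads), and its mOC interval overlapped both others. Adgrf1 ended at 35.7% (21.6 to 52.0, 42 reads) and Trpm3, a cation channel gene, at 31.2% (11.0 to 58.7, 16 reads).

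A smaller group was listed as lower in mOC than in BMM. In the authors' table of mOC against BMM, 120 of the 1095 regions (11.0%) were listed as lower in mOC. The share was 6.43% of all lower regions with at least 60% in BMM and 8.94% of the set closest in level. Listed as higher were 3 (0.274%), against 0.129% of all lower regions of that BMM level and 0.301% of the set closest in level. The 3 were Niban1, Spock3 and the predicted gene Gm13605. Of the 123, 64 were in both tables and 59 only in this one. In the 59, median levels were 63.6% in BMM, 12.5% in pOC and 24.0% in mOC. In 54 of them mOC was within 20 points of pOC, and in 11 it was at most 15%. The group is absent from a table that lists differences of at least 20 points from pOC. Its levels near pOC and below BMM therefore follow largely from how the group was formed. Cul5, the scaffold of a ubiquitin ligase (chr9:53665001-53665200), was at 74.1% (53.7 to 88.9, 27 reads) in BMM, 13.6% (2.91 to 34.9, 22 reads) in pOC, then 13.9% (4.67 to 29.5, 36 reads) in mOC, so that pOC and mOC overlapped and both lay apart from BMM. Tln2, which encodes the adhesion protein talin 2, was at 62.5% (35.4 to 84.8, 16 reads), 10.5% (1.30 to 33.1, 19 reads) and 25% (7.27 to 52.4, 16 reads), with an mOC interval that overlapped both others.

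For 496 regions (45.3%) no mOC level was listed at the same coordinates, and 470 of these were overlapped by no row of either mOC table. Since BMM and pOC differ by at least 45 points in every near-complete loss, any mOC level is at least 22.5 points from one of them, past the minimum of 20 points. These regions therefore missed another condition of the authors' tables, which can be the reads, the p-value or the borders of the region. Which of these it was is not given. Each region has at least 4 cytosines, the least of a listed region, and 26 were overlapped by a row with other borders. Their reads in mOC are not given. Median reads were 24 in BMM and 22 in pOC, against 27 and 24 in the 476 regions listed only against pOC. Every listed region passed the read minimum in BMM and pOC, so these medians say nothing about the reads in mOC. Returned and unreturned regions cannot be counted among the 496.

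Most near-complete losses had no other listed loss close by. Another lower region lay within 1000 bp of 196 regions (17.9%), against 27.5% of all lower regions with at least 60% in BMM and 18.9% of the set closest in level. None of the 217 neighbours was itself a near-complete loss. Near-complete losses made up 0.468% of all lower regions, so none among 217 is near that share and says nothing particular about their spacing. The closest pair of near-complete losses had starts 2000 bp apart. The neighbours hold other cytosines, which the rule did not use, but they are listed in the same table and so dropped by at least 20 points. Their median level was 78.9% in BMM (quartiles 64.7 and 89.5%) and 46.4% in pOC (quartiles 29.4 and 57.9%), with a median drop of 30.3 points. Around all lower regions with at least 60% in BMM the neighbours dropped by a median of 29.4 points. A pOC level of at most 15% was found in 17 of the 217 neighbours (7.83%), against 3.48% around all lower regions of that BMM level and 6.97% around the set closest in level. Neighbours had more summed reads, at a median of 39 in BMM and 37 in pOC. Of the 217, 79 had an mOC level, with a median of 77.6%. A region higher in pOC lay within 1000 bp of 13 near-complete losses (1.19%). The share was 1.40% of all lower regions with at least 60% in BMM and 1.61% of the set closest in level, so it is near the background.

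**Figure D3:**
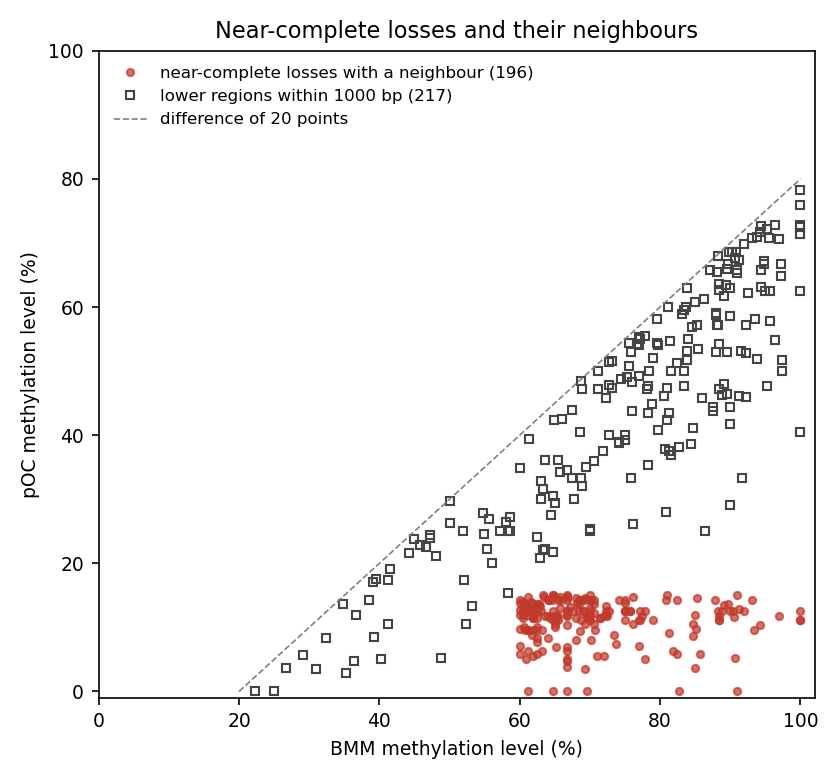
Methylation level in pOC (%, y axis) against BMM (%, x axis) for the 196 near-complete losses with another lower region within 1000 bp (filled circles) and those 217 neighbours (open squares). The dashed line marks the authors' minimum difference of 20 points, and the neighbours spread along it with a median of 46.4% in pOC.

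Near-complete losses were divided about evenly between genes and the space between them. A gene span held 539 of 1095 (49.2%), against 66.9% of all lower regions with at least 60% in BMM and 51.8% of the set closest in level. Among regions with 4 cytosines the shares were 47.7%, 65.8% and 51.0%. The shares by BMM level lay closer together at its lower end. From 60 to under 70% in BMM the share was 45.1% for near-complete losses and 49.6% for all lower regions, from 70 to under 80% 55.6% and 56.2%, from 80 to under 90% 53.8% and 66.9%, and at 90% or more 63.6% (35 of 55 regions) and 77.9%. These differences were not tested. Regions over 100 kb from any gene numbered 62 (5.66%), against 1.97% of all lower regions with at least 60% in BMM, 4.66% of the set closest in level and 8.16% of lower regions under 60% in BMM and at most 15% in pOC. Chromosome X held 19, or 1.26% of its lower regions with at least 60% in BMM, against 0.581% on the autosomes. It held 1.74% of the near-complete losses and 1.88% of the set closest in level. Lower regions on chromosome X had fewer reads summed over cytosines (median 28 and 29 in BMM and pOC, against 37 and 37). Of them 56.7% had 4 cytosines, against 41.8% on the autosomes, which lowers such sums. The parts of depth and of cytosine number in this difference were not tested.

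**Figure D4:**
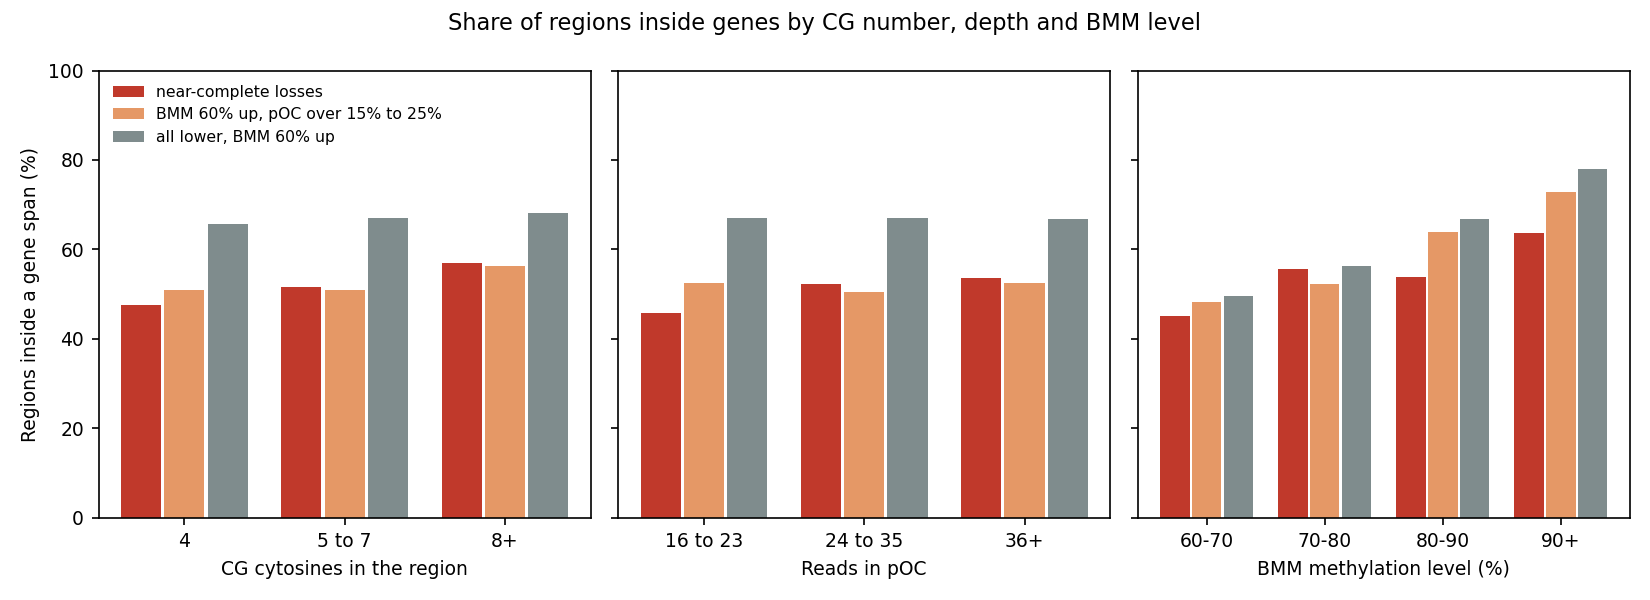
Share of regions inside a RefSeq gene span (%, y axis, from 0) by number of CG cytosines, reads in pOC and BMM level (x axes) for near-complete losses, lower regions with at least 60% in BMM and over 15% to 25% in pOC, and all lower regions with at least 60% in BMM. By BMM level the share of near-complete losses runs from 45.1% at 60 to under 70% to 63.6% at 90% or more.

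Genes with a near-complete loss were long. Of 21900 protein-coding genes, 428 (1.95%) held one, with a median length of 132649 bp against 29740 bp for protein-coding genes with a lower region. A longer gene has more room for any region, so this length is not read as a trait of near-complete losses. The part of length was not tested. Near-complete losses made up 0.348% of the 128861 lower regions in protein-coding genes, and the counts for gene lists are read against these shares. Of 38 genes on a list of osteoclast differentiation and function, 34 held a lower region, with 267 regions in all, and 0 held a near-complete loss. The count was also 0 for 29 genes of macrophage identity (205 lower regions), 24 negative regulators of osteoclastogenesis (132) and 24 genes of the DNA methylation machinery (157). It was 0 again for 14 T cell, 11 B cell, 12 neutrophil, 12 erythroid and megakaryocyte and 13 stromal marker genes, which held 56, 67, 7, 11 and 129 lower regions. With so few lower regions, a count of 0 is near the background share and says nothing particular about these lists.

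In the signalling lists single genes held a near-complete loss. Of 55 genes of RANK, NF-κB, MAPK and calcium signalling, 2 held one, which is 0.216% of the list's 925 lower regions. Ppp3ca, which encodes the catalytic subunit of calcineurin, the phosphatase that activates NFATc1, was at 78.0% (62.4 to 89.4, 41 reads) in BMM but 12.5% (3.51 to 29.0, 32 reads) in pOC. Phlpp1, a phosphatase acting on AKT, was at 90.9% (70.8 to 98.9, 22 reads) and 0% (0 to 20.6, 16 reads). Of 30 V-ATPase and lysosome genes, 1 held one (0.490% of 204 lower regions), the proton pump subunit gene Atp6v0a2, at 75% (47.6 to 92.7, 16 reads) and 12.5% (1.55 to 38.3, 16 reads). For all 3 no mOC level was listed.

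Of 48 genes of cell fusion and cytoskeleton, 4 held one, which is 0.369% of the list's 1084 lower regions and near the 0.348% of all protein-coding genes. Dock2, an activator of the GTPase Rac in blood cells, was at 73.7% (48.8 to 90.9, 19 reads) in BMM but 11.1% (1.38 to 34.7, 18 reads) in pOC. Its partner gene Elmo1 was at 66.7% (43.0 to 85.4, 21 reads), 11.8% (1.46 to 36.4, 17 reads) and, in mOC, 60% (36.1 to 80.9, 20 reads). Dock8, an activator of the GTPase CDC42, was at 60% (38.7 to 78.9, 25 reads), 14.8% (4.19 to 33.7, 27 reads) and 58.3% (36.6 to 77.9, 24 reads). In Elmo1 and Dock8 the BMM and mOC intervals overlapped almost wholly, and Tln2 is given above. Among 47 genes of cell cycle and DNA repair, Npm1 and Ercc4 held one, among 60 chromatin modifiers Hdac4, a class IIa histone deacetylase gene, with 90.3% (74.2 to 98.0, 31 reads) and 12.5% (1.55 to 38.3, 16 reads), among 51 genes of the ubiquitin system Cul5, and among 33 of glycolysis and mitochondrial metabolism Cox4i1, a subunit gene of cytochrome c oxidase. These were 0.327%, 0.0802%, 0.0837% and 0.398% of the lower regions of the 4 lists. Cox4i1 was at 89.5% (75.2 to 97.1, 38 reads) in BMM, 11.5% (2.45 to 30.2, 26 reads) in pOC, then 85% (62.1 to 96.8, 20 reads) in mOC.

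Long neuronal genes made up 15 of the 27 listed genes with a near-complete loss. Of 49 genes of neuronal adhesion and synapse, with a median length of 1105888 bp, 15 held 19 near-complete losses among 2772 lower regions (0.685%, against 0.348% over protein-coding genes, not tested). Grm5, a glutamate receptor gene, was at 77.1% (62.7 to 88.0, 48 reads) in BMM, 10.3% (2.19 to 27.4, 29 reads) in pOC, then 75.7% (58.8 to 88.2, 37 reads) in mOC. Robo1, an axon guidance receptor gene, was at 73.7% (48.8 to 90.9, 19 reads), 7.41% (0.910 to 24.3, 27 reads) and 72.7% (49.8 to 89.3, 22 reads). Both had nearly equal BMM and mOC levels. Csmd3 ended at 40.4% (27 to 54.9, 52 reads) in mOC from 60.3% (46.6 to 73.0, 58 reads) in BMM, with 11.6% (3.89 to 25.1, 43 reads) in pOC between them. Over all genes, 24 held 2 near-complete losses and 3 held 3, namely Auts2 (1105888 bp), Fhit (1611970 bp) and Rbms3 (1057168 bp), with 84, 68 and 78 lower regions. Among the genes with 2 were Irf2 and Mecom, both transcription factor genes of blood cells, and the scavenger receptor gene Stab2.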

How the data were processed

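Whole-genome bisulfite sequencing covered 3 libraries (BMM, pOC and mOC). For each pair of libraries the authors deposited a table of regions. Per the file headers it gives counts of all reads over a region and of the methylated ones, a fraction (the level), a cytosine count and a p-value. The authors' deposited p-value was used only as a filter in an alternative. The heading hours were matched to stages. Reads of a library were identical wherever 2 tables shared a region (82392 for pOC, 17128 for BMM and 1456 for mOC). Listed regions had at least 16 reads, 4 cytosines, 4 reads per cytosine and a difference of 20 points, so a table holds no region that changed less. The largest deposited p-value was 0.0917 in mOC against pOC, but 0.0500 in pOC against BMM and in mOC against BMM. Shares listed against pOC and against BMM therefore rest on unlike limits. GRCm38, FastQC, HISAT2 and StringTie are named in the submitters' processing notes. No source used here gives the bisulfite aligner, the region caller or its test.

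Levels were recomputed from the counts, and mOC levels taken from rows of the same coordinates, first against pOC and otherwise against BMM. Genes came from a RefSeq table of GRCm38.p6 (49997 genes with coordinates) by overlap of at least 1 bp with the gene span. Exons and introns were not placed. Strand and start sites came from the RefSeq promoter table, which has no entries used here for chromosome 18. In 140 of 140 lower regions inside 1 promoter window, listed cytosines equalled those in the sequence. All 550 entries of 17 gene lists were found, 549 under the current symbol. No test was made, since each stage has 1 library. The scripts were tested on simulated data. The regions and lists were chosen with earlier results of these data known. Genes were named by a rule: the 20 with the most reads, the 10 with the widest gap between intervals, list members, genes with 2 or more regions, the 8 highest and 8 lowest in mOC, the 10 nearest to a start and the 8 with the most cytosines; of those the text gives a selection. Gm4613, Gm13605, LOC108168956, 1810006J02Rik and the regions between genes on chromosomes 7 and 11 fall outside it and were chosen after their values were seen. Python 3.11.15, pandas 2.3.3, NumPy 2.4.6 and SciPy 1.17.1 were used.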

Additional observations from a re-analysis of the deposited data

How the results depend on the processing

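The number of near-complete losses depends on the limits: it was 660 and 208 with at least 20 and 30 reads in both libraries, 335 and 2959 with limits of 10% and 20% in pOC, 174 with at least 80% in BMM, and 736 where the authors' p-value was 0.001 or less. The share listed in mOC against pOC was 53.5% with at least 20 reads and 46.1% where the authors' p-value was 0.05 or less. The median mOC level stayed between 56% and 58.1% under 4 alternatives. The share in genes was 41.0% for protein-coding genes and 55.3% with spans widened by 2000 bp, and the share with a lower neighbour 59.0% within 5000 bp. No paired analysis was possible because each stage has 1 library, and no library could be left out. Depth limits the pOC levels: at a median of 23 reads their median upper bound was 30.4%.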
